A study of Mus musculus with 6 samples.

Results

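Mt1, Mt2, Slc30a1, Slc30a10, Slc39a4, Atp7b and Slc31a1 form a set of 7 genes that bind, move or export zinc, manganese and copper in the liver, and were chosen by name among the 45777 genes of the deposited table. All 7 were found and all 7 were among the 17274 genes tested. The libraries came from whole liver of male C57BL/6 mice on a high-fat diet (HFD), with 3 control littermates carrying the floxed ferroportin allele without Cre (Fpn flox/flox, hereafter LT) and 3 mice carrying the same allele with Alb-Cre (Alb-Cre; Fpn flox/flox, hereafter Fpn-LKO). Both groups thus share the floxed allele and the diet, Cre is driven by the albumin promoter and acts in hepatocytes, so that other liver cells keep ferroportin, and the sample labels give no age. Each library is labelled as a separate replicate and is taken here as 1 mouse, and p-values below rest on these 6 libraries. In whole tissue, fewer cells of a type and less RNA per cell cannot be told apart.

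Metallothioneins are small cysteine-rich proteins that bind zinc and copper in the cytosol and are among the most readily induced proteins of the liver. The transcription factor MTF-1 senses free zinc and binds metal response elements in the promoters of metallothionein genes and of Slc30a1, and glucocorticoids and IL-6 also induce hepatic metallothionein. Transporters of the Slc30 family (ZnT) lower cytosolic zinc or manganese, those of the Slc39 family (ZIP) raise it, and copper enters through Slc31a1 (CTR1) and leaves hepatocytes towards bile and ceruloplasmin through Atp7b.

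The promoters of Mt1 and Mt2 are shown because both genes varied together and because metal response elements are their best known control elements. Sequence is from RefSeq (GRCm38.p6) and covers the 250 bases before the annotated start on the plus strand, at chr8:94178839-94179088 for Mt1 and chr8:94172368-94172617 for Mt2. The Mt1 window follows the start used in the promoter table and lies partly inside the longer RefSeq gene span given below. Capitals mark matches to the core of the metal response element, TGCACNC or TGCGCNC, on either strand.
Mt1: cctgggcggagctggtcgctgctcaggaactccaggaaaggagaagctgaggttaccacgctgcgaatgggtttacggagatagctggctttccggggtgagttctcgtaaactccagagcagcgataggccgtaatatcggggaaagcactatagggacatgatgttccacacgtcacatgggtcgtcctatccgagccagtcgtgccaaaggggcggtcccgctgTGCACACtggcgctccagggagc
Mt2: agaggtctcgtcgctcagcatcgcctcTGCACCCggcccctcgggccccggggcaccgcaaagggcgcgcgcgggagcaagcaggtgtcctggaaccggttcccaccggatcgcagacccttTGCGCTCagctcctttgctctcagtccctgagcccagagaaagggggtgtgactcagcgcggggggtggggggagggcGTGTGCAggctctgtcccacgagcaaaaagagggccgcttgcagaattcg
Within the full window, which reaches 50 bases past the start, Mt1 held 3 matches, of which 1 lies in the bases printed, Mt2 held 4, of which 3 do, and Slc30a1 held 2. Slc30a10 held 3 matches, of which a pair overlapped on opposite strands, Atp7b held 1, and Slc31a1 had no match in this window. Of all 32851 promoter windows of the same length, 25.7% held at least 1 match, 7.11% at least 2, 1.97% at least 3 and 0.517% at least 4. The antioxidant response element, searched as TGACNNNGC on both strands, matched once in Mt2 and once in Slc30a1, and 12.4% of all windows held it. TTCNNNGAA, the core of a STAT site, was found in none of the 6 windows, and 8.3% of all windows held it. The 6 members with an entry in the promoter table were Mt1, Mt2, Slc30a1, Slc30a10, Atp7b and Slc31a1, and Slc39a4 had none. Past the start used, matches lay at offsets 2 and 20 for Mt1 and 4 for Mt2. The counts thus depend on where the start is placed, and bases beyond the window were not searched. They therefore do not rank Mt1 against Mt2. These matches describe letters in a window and were not read as binding sites.

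The genotype labels and the tissue were examined first. The libraries held 43086184 to 47778683 reads on genes. Slc40a1, which encodes ferroportin, had 154, 180 and 126 CPM (read counts relative to the TMM-scaled library total) in the LT livers (replicates 1 to 3) against 143, 143 and 176 CPM in Fpn-LKO, so ferroportin reads did not separate the genotypes (log2 fold change 0.0073 ± 0.16 SE). Directions below therefore refer to the genotype as labelled. The study itself reports hepatocyte-specific loss of ferroportin in this line, from primary hepatocytes and from protein staining. Whole-liver reads also include cells that keep ferroportin. Of the iron genes Tfrc, Ftl1, Fth1, Trf and Hamp, chosen after their values were seen, groups did not overlap for Tfrc, the transferrin receptor, at 38.65 ± 12.65 CPM in LT and 16.4 ± 2.98 CPM in Fpn-LKO, and for Ftl1, the ferritin light chain, at 1932 ± 191 and 2967 ± 282 CPM (SD, n = 3 each). Neither passed adjustment (edgeR quasi-likelihood adjusted p = 0.570 and 0.926). Groups did not overlap for 10.6% of all genes tested. Since the values were seen before the choice, these genes were not taken as a check of the labels. Albumin was the most abundant hepatocyte marker, at 38070 to 48160 CPM. Of 6 intestinal genes, Cdx1, Cdx2, Lct and Sis had no read, Vil1 had 7 reads in LT replicate 1 alone, and Fabp2, which the intestine shares with liver, had 84.2 to 153 CPM. Of 9 pancreatic acinar genes 8 had no read. Among bile duct markers, Krt19, Krt7 and Cftr stayed at or under 0.30 CPM, Epcam and Sox9 had 0.21 to 1.26 CPM, and Spp1, which other liver cells also make, had 11.1 to 83.1 CPM. The 5 RNAs without a poly(A) tail took 3.29% and 4.49% of reads in Fpn-LKO replicates 2 and 3, and 7.65% to 10.2% in the other 4 libraries. Their part in the results below was not tested.

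None of the 7 members passed an adjusted p-value of 0.05 in edgeR's quasi-likelihood fit after Benjamini-Hochberg correction, where 0.0232% of all genes tested did. At an unadjusted p-value under 0.05 the count was 1 of 7, which was Mt2, against 4.8% of all genes (2.62% higher and 2.19% lower in Fpn-LKO). DESeq2 and exactTest likewise called 0 of 7 after adjustment (0.417% and 0.365% of all genes) and gave 1 of 7 before it. Over the other settings the unadjusted count was 0 to 2 of 7, and it was 0 without LT replicate 1, LT replicate 2 or Fpn-LKO replicate 3, where the unadjusted p of Mt2 in edgeR was 0.059, 0.0577 and 0.0715. No member had groups that do not overlap, against 10.6% of all genes (5.25% higher and 5.34% lower).

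**Figure D1:**
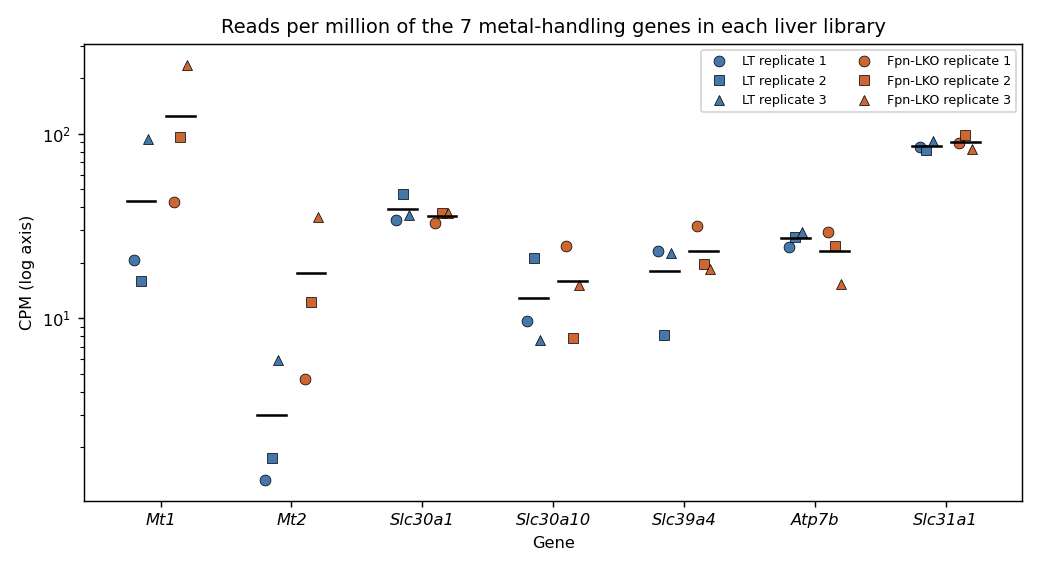
TMM-scaled read counts (CPM, log axis) of the 7 genes, with LT libraries in blue, Fpn-LKO libraries in orange, replicate numbers by marker shape and group means as black lines. Mt1 and Mt2 ranged from 16.0 to 236 CPM and from 1.33 to 35.45 CPM, whereas Slc31a1 stayed between 82.0 and 98.9 CPM.

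Mt1, the main hepatic metallothionein, had 20.6, 16.0 and 93.4 CPM in the LT livers (replicates 1 to 3) against 42.9, 96.1 and 236 CPM in Fpn-LKO replicates 1 to 3. LT replicates 1 and 2 were the lowest of the 6 libraries, LT replicate 3 lay just under Fpn-LKO replicate 2, and the groups overlapped. The means were 43.3 ± 43.4 CPM in the LT livers against 125 ± 99.9 CPM in Fpn-LKO (SD, n = 3 each). The fitted log2 fold change was 1.53 (standard error 0.81, 95% interval -0.36 to 3.42, edgeR quasi-likelihood adjusted p = 0.982), or 2.89-fold.

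Mt2, the second liver isoform, had the same 3 highest libraries with far fewer reads. It had 66, 76 and 244 reads in LT, or 1.33, 1.755 and 5.90 CPM, and 222, 574 and 1645 reads in Fpn-LKO, or 4.65, 12.3 and 35.45 CPM. LT replicate 3 again exceeded Fpn-LKO replicate 1, so the genotypes were not separated. The two-sided exact permutation p was 0.2 for each of Mt1 and Mt2, and 0.1 is the smallest possible with 3 mice against 3. The log2 fold change was 2.55 (standard error 0.83, 95% interval 0.62 to 4.48), with an unadjusted p = 0.0162 and an edgeR quasi-likelihood adjusted p = 0.982. Without Fpn-LKO replicate 3, the library with the highest level of both genes, the log2 fold changes were 0.69 for Mt1 and 1.51 for Mt2, and without LT replicate 3 they were 2.78 and 3.505.

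The difference between mice of 1 genotype was the main feature of both metallothioneins. The SD of log2 CPM within groups was 1.31 for Mt1 and 1.30 for Mt2, against a median of 0.29 over all genes tested, which placed Mt1 at the 97th percentile and Mt2 at the 96.9th. Between the highest and the lowest library, Mt1 differed 14.8-fold and Mt2 26.7-fold.

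Mt1 and Mt2 lie next to each other on chromosome 8 of GRCm38 in RefSeq, Mt2 from 94172618 to 94173567 and Mt1 from 94178883 to 94180327, both on the plus strand, with 5315 bases and no annotated gene between them. Their levels varied together over the 6 libraries (Pearson's r = 0.964, exact permutation p = 0.00417, adjusted p = 0.0438 over the 21 pairs of members, and Spearman's rho = 0.943, exact permutation p = 0.0167, adjusted p = 0.175). Without LT replicate 2 and Fpn-LKO replicate 3, the libraries farthest from the median of Mt1, r was 0.931, and for the deviations from the group means it was 0.962. On log2 TPM, r was 0.966 (exact permutation p = 0.00278, adjusted p = 0.0583) and rho 0.943 (exact permutation p = 0.0167, adjusted p = 0.35). All values share the scaling of their library. The spliced Mt2 transcript aligned to Mt1 at 79.2% identity over 192 bases, under the 90% used here to mark near-identical copies, and an annotated antisense transcript, Gm45774, shares 212 bases with Mt2.

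On the TPM scale, which allows levels of different genes to be compared per length, Mt2 stood at 6.40%, 10.97% and 6.36% of Mt1 in LT replicates 1 to 3 and at 10.95%, 12.8% and 15.2% in Fpn-LKO. LT replicate 2 and Fpn-LKO replicate 1 were nearly the same, so the groups overlapped by the width of that pair. The means of this share were 7.91% ± 2.65 and 13.0% ± 2.11 (SD, n = 3 each, exact two-sided permutation test, p = 0.2). Mt3 and Mt4, the brain and epithelial metallothioneins of the same cluster on chromosome 8, had 0 reads in all 6 libraries.

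**Figure D2:**
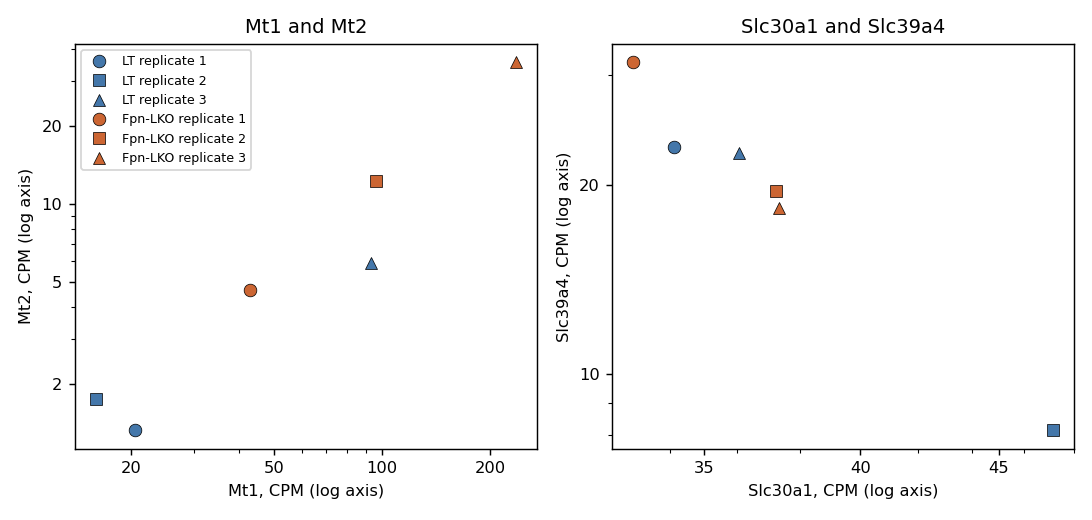
CPM of Mt2 against Mt1 (left) and of Slc39a4 against Slc30a1 (right) in the 6 libraries, on log axes, with colour for the group and shape for the replicate number. Mt2 was higher in libraries with more Mt1, and Slc39a4 was lower in libraries with more Slc30a1, with LT replicate 2 at the end of the range at 47.15 and 8.13 CPM.

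Slc30a1 (ZnT1) exports zinc across the plasma membrane and is, with the metallothioneins, the best known target of MTF-1. It had 34.1, 47.15 and 36.1 CPM in the LT livers against 33.0, 37.2 and 37.3 CPM in Fpn-LKO. LT replicate 2 stood above the other 5 libraries, which lay within 33.0 and 37.3 CPM. The log2 fold change was -0.13 (standard error 0.15, 95% interval -0.47 to 0.22, edgeR quasi-likelihood adjusted p = 0.995), so the interval did not reach a 2-fold difference in either direction. Its order over the libraries was not that of the metallothioneins (Spearman's rho with Mt1 0.0857, exact permutation p = 0.919, adjusted p = 1, Pearson's r = -0.291, exact permutation p = 0.626, adjusted p = 0.928), and the sign of r changed to 0.754 without LT replicate 2 and Fpn-LKO replicate 3.

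Slc39a4 (ZIP4) imports zinc and is known mainly from the intestinal epithelium. It had 23.1, 8.13 and 22.6 CPM in the LT livers against 31.45, 19.6 and 18.4 CPM in Fpn-LKO. LT replicate 2 was the lowest library and Fpn-LKO replicate 1 the highest, and the groups overlapped. The log2 fold change was 0.37 (standard error 0.39, 95% interval -0.55 to 1.29, edgeR quasi-likelihood adjusted p = 0.991), and it was 0.026 without LT replicate 2 and 0.085 without Fpn-LKO replicate 1. Its level was 4.46 to 17.1 TPM over the 6 libraries.

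The zinc importer Slc39a4 and the zinc exporter Slc30a1 varied in opposite directions over the livers in CPM, a relation that did not pass adjustment in TPM. Ranked by CPM, the 6 libraries had exactly reversed orders for both genes, although Fpn-LKO replicates 2 and 3 were nearly tied for Slc30a1 at 37.22 and 37.33 CPM (Spearman's rho = -1, exact permutation p = 0.00278, adjusted p = 0.0583 over the 21 pairs, and Pearson's r = -0.989, exact permutation p = 0.00139, adjusted p = 0.0292). Without LT replicate 2 and Fpn-LKO replicate 1, the libraries farthest from the median of Slc30a1, r was -0.864 over the other 4, and for the deviations from the group means it was -0.989. On log2 TPM, a scale added after the data were seen, r was -0.69 (exact permutation p = 0.0972, adjusted p = 0.671) and rho was -0.714 (exact permutation p = 0.136, adjusted p = 0.715). This pair was singled out after its values were seen. The other 19 pairs, leaving out this one and Mt1 with Mt2, had adjusted p-values of at least 0.846 for either coefficient (exact permutation).

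Slc30a10 is a manganese exporter of liver and intestine. It had 9.68, 21.3 and 7.64 CPM in the LT livers against 24.5, 7.775 and 15.1 CPM in Fpn-LKO. The lowest and the second lowest library, LT replicate 3 and Fpn-LKO replicate 2, belonged to different groups, and so did the highest ones, Fpn-LKO replicate 1 and LT replicate 2. Its log2 fold change was 0.30 (standard error 0.49, 95% interval -0.84 to 1.44, edgeR quasi-likelihood adjusted p = 0.995), and the sign turned to -0.17 without Fpn-LKO replicate 1. The within-group SD of log2 CPM was 0.80, at the 88.9th percentile of all genes tested.

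Slc31a1, the high-affinity copper importer, was the steadiest member. It had 84.5, 82.0 and 91.8 CPM in the LT livers against 89.2, 98.9 and 82.45 CPM in Fpn-LKO, with 1.21-fold between the highest and the lowest library. The within-group SD of log2 CPM was 0.11, at the 9.8th percentile of all genes tested. The log2 fold change was 0.067 (standard error 0.11, 95% interval -0.20 to 0.33, edgeR quasi-likelihood adjusted p = 0.995).

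Atp7b, the copper-transporting ATPase that is defective in Wilson disease, had 24.4, 27.4 and 29.3 CPM in the LT livers against 29.4, 24.5 and 15.3 CPM in Fpn-LKO. Fpn-LKO replicate 3 was the lowest library. Fpn-LKO replicate 1 lay just above the highest LT library, and Fpn-LKO replicate 2 lay within the LT range. The log2 fold change was -0.23 (standard error 0.23, 95% interval -0.76 to 0.30, edgeR quasi-likelihood adjusted p = 0.991), and it was -0.0023 without Fpn-LKO replicate 3. The same library had the highest level of Mt1 and of Mt2. Slc31a1 exceeded Atp7b in TPM 4.35- to 4.997-fold in LT and 4.27-, 6.05- and 7.64-fold in Fpn-LKO replicates 1 to 3 (exact two-sided permutation test, p = 0.4).

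Ordered by mean TPM over the 6 libraries, Mt1 came first at 198 ± 195 TPM, followed by Slc31a1 at 30.9 ± 4.49, Mt2 at 24.5 ± 31.2, Slc39a4 at 11.8 ± 4.25, Slc30a1 at 9.335 ± 1.4, Atp7b at 6.01 ± 1.11 and Slc30a10 at 3.17 ± 1.48 (SD, n = 6). The ranges of neighbours in this order overlapped, apart from Slc30a1, at 7.77 to 11.25 TPM, and Atp7b, at 3.81 to 6.90 TPM. Within a library, Mt1 exceeded Slc31a1 in 6 of 6, and Mt2 exceeded Slc39a4 in 3 of 6.

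Of the 10 Slc30 genes, 7 were tested and none had an unadjusted p-value under 0.05 or groups that do not overlap, with a median log2 fold change of 0.029 against -0.00395 over all genes. Slc30a5 and Slc30a9, which serve the secretory pathway and the mitochondria, were the most abundant, at 26.9 and 22.1 TPM. Slc30a2 had no read, and Slc30a3, which loads zinc into synaptic vesicles, was not tested, at 0, 3 and 0 reads in LT and 10, 15 and 17 reads in Fpn-LKO.

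Of the 14 Slc39 importers, 13 were tested, 12 of these had a positive log2 fold change, and none had an unadjusted p-value under 0.05. The median was 0.19 against -0.00395 over all genes. Groups did not overlap for Slc39a1, Slc39a13 and Slc39a14, which is 3 of 13 where 10.6% of all genes showed this, and all 3 were higher in Fpn-LKO, against 5.25% in that direction. Slc39a14 (ZIP14), the most abundant importer at 52.4 TPM and a carrier of zinc, manganese and iron without transferrin, had 184, 195 and 222.5 CPM in the LT livers against 222.5, 241 and 232 CPM in Fpn-LKO. LT replicate 3 and Fpn-LKO replicate 1 were equal in the digits given, and the log2 fold change was 0.21 (standard error 0.12, edgeR quasi-likelihood adjusted p = 0.982). Slc39a1 (ZIP1), a ubiquitous plasma membrane importer, had 53.1 to 54.9 CPM in the LT livers against 56.7 to 61.8 CPM in Fpn-LKO. The corresponding values of Slc39a13 (ZIP13), a carrier of the secretory pathway, were 5.32 to 6.70 and 6.77 to 6.88 CPM, and the least abundant importer, Slc39a12, averaged 0.074 TPM and was not tested.

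Among 20 copper-handling genes, the 2 metallothioneins included, 3 had an unadjusted p-value under 0.05, all higher in Fpn-LKO (2.62% of all genes in that direction), and none passed adjustment. Groups did not overlap for 3 of 20, Steap4, Cox19 and Slc31a2, all higher (5.25% of all genes). The 3 genes with an unadjusted p-value under 0.05 were Mt2, whose groups overlapped, Steap4 and Cox19. Steap4, a metalloreductase that reduces iron and copper and responds to inflammation, had 129, 207 and 207 CPM in the LT livers against 220, 270 and 696 CPM in Fpn-LKO. The groups did not overlap, but Fpn-LKO replicate 3 stood far above the other 5 libraries (log2 fold change 1.13 ± 0.44 SE, edgeR quasi-likelihood adjusted p = 0.982). Cox19, a factor in the assembly of cytochrome c oxidase, had 20.95, 18.2 and 22.3 CPM in the LT livers against 25.8, 24.4 and 26.85 CPM in Fpn-LKO (log2 fold change 0.33 ± 0.12 SE, edgeR quasi-likelihood adjusted p = 0.982). Slc31a2 (CTR2), an intracellular relative of Slc31a1, also had groups that do not overlap, at 7.48 to 7.83 CPM in the LT livers against 8.65 to 11.4 CPM in Fpn-LKO. The most abundant of the list, Sod1 and the plasma ferroxidase Cp, had log2 fold changes of -0.029 and 0.051, and the least abundant, Steap2, averaged 0.62 TPM and had one of -0.39. The median of the list was 0.059, against -0.00395 over all genes.

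**Figure D3:**
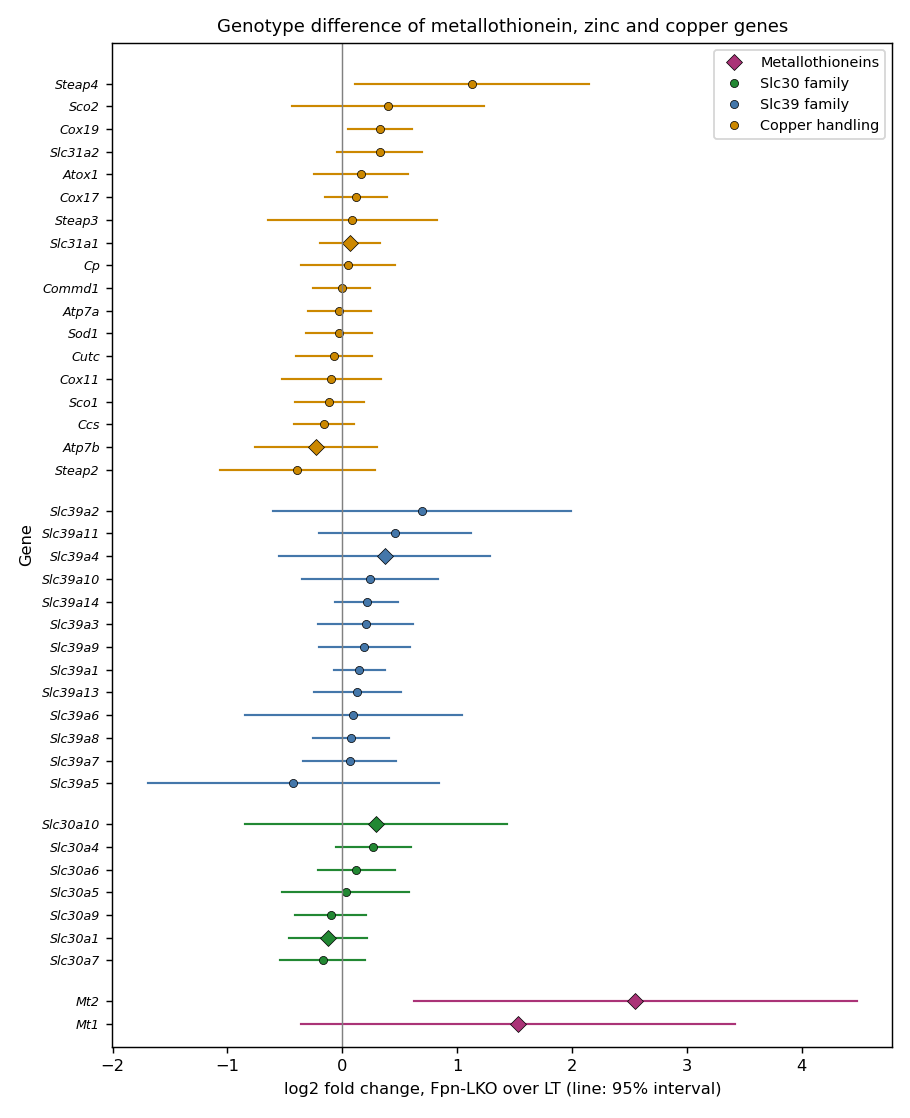
Log2 fold changes (Fpn-LKO over LT) with 95% intervals from edgeR's quasi-likelihood fit for the tested metallothionein, Slc30, Slc39 and copper-handling genes, with diamonds for the 7 members. Mt2, Steap4 and Cox19 had intervals above 0, and no gene shown passed the adjustment over all genes.

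MTF-1 itself, encoded by Mtf1, had 9.46 to 11.8 CPM in the LT livers against 11.4 to 11.6 CPM in Fpn-LKO (log2 fold change 0.11, edgeR quasi-likelihood adjusted p = 0.995). Of the 8 genes of its list, which counts Mtf1 itself, 7 had a positive log2 fold change, and Slc30a1 had one of -0.13. The median was 0.37 against -0.00395 over all genes. An unadjusted p-value under 0.05 was found for 2 of the 8 (4.8% of all genes), and none passed adjustment. Besides Mt2 this was Selenow, a small selenoprotein, with 15.7, 16.95 and 17.2 CPM in the LT livers against 24.9, 21.5 and 22.4 CPM in Fpn-LKO (log2 fold change 0.47 ± 0.11 SE, edgeR quasi-likelihood adjusted p = 0.747). Slc39a10, also counted among the 7, is a zinc importer that MTF-1 represses. Its log2 fold change of 0.24, at 0.54 TPM, therefore cannot be added to those of induced targets.

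Of 13 liver enzymes that carry zinc, such as Adh1 and Bhmt, the median log2 fold change was -0.021, and 1 had an unadjusted p-value under 0.05 (4.8% of all genes). This was Sord, the sorbitol dehydrogenase, with 1451, 1382 and 1286 CPM in the LT livers against 1096, 908 and 1156 CPM in Fpn-LKO (log2 fold change -0.38 ± 0.16 SE, edgeR quasi-likelihood adjusted p = 0.982).

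Genes of the acute-phase response, which IL-6 induces in hepatocytes together with metallothionein, were compared with Mt1 by the libraries in which they were highest. Mt1 and Mt2 were highest in LT replicate 3 and Fpn-LKO replicates 2 and 3, and the same 3 libraries were the highest for 11 of 18 acute-phase genes, where 6.48% of all genes tested showed this. The 11 were Saa1, Saa2, Orm1, Orm2, Hp, Hpx, Lcn2, Fga, Fgb, Fgg and Itih4, and the other 7 had a different set of highest libraries. Saa1, the serum amyloid A protein that rises most in inflammation, had 27.0, 47.6 and 1189 CPM in the LT livers against 69.4, 622.5 and 1069 CPM in Fpn-LKO. LT replicate 3 was thus the highest library for Saa1, and Fpn-LKO replicate 3 was the highest for Mt1 and Mt2. Between the genotypes, 0 of the 18 genes passed adjustment, 1 had an unadjusted p-value under 0.05 (4.8% of all genes), and the median log2 fold change was 0.32. That gene was Lbp, the lipopolysaccharide-binding protein, with 46.4, 46.4 and 50.5 CPM in the LT livers against 79.8, 61.7 and 61.8 CPM in Fpn-LKO (edgeR quasi-likelihood adjusted p = 0.829). The part of this response in the metallothionein levels was not tested.

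**Figure D4:**
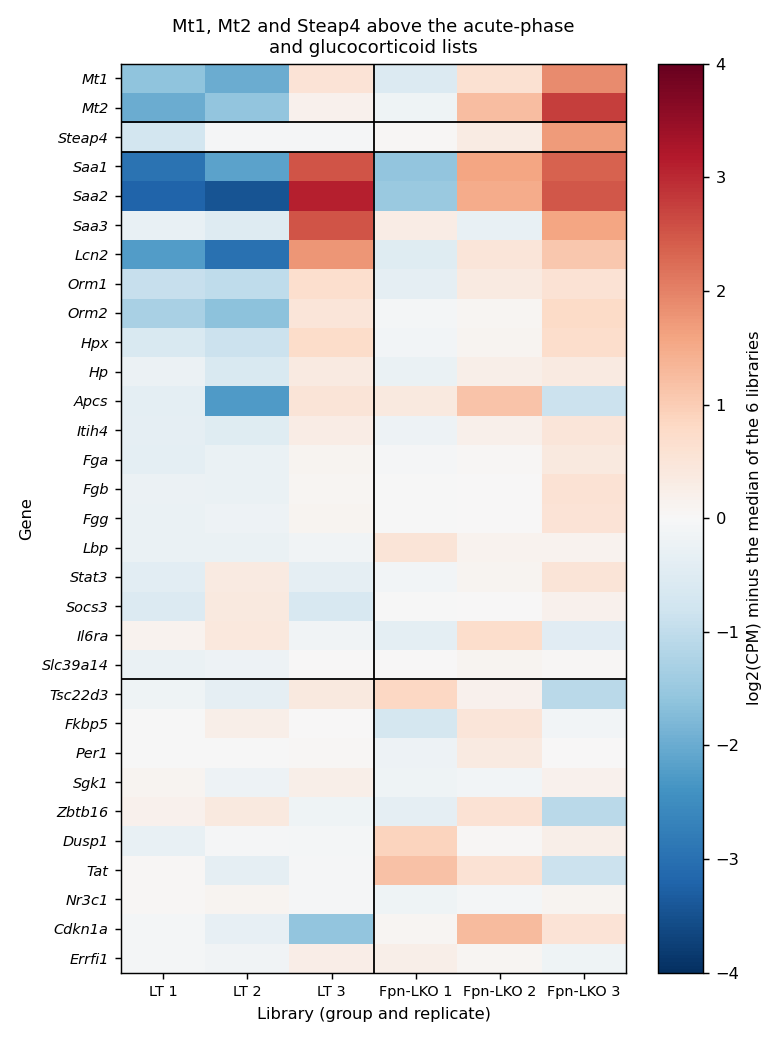
Log2 CPM minus the median of the 6 libraries (colour) for Mt1, Mt2 and Steap4, then 18 acute-phase genes and 10 glucocorticoid-response genes. Mt1, Mt2 and Saa1 were below the median in LT replicates 1 and 2 and Fpn-LKO replicate 1. They were above it in LT replicate 3, by 0.56, 0.17 and 2.52, and in Fpn-LKO replicates 2 and 3. Tat was highest in Fpn-LKO replicate 1 and lowest in Fpn-LKO replicate 3. Sgk1, of the same list as Tat, was highest in LT replicate 3 and Fpn-LKO replicate 3.

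Among genes of the glucocorticoid response, the same 3 libraries were highest for 2 of 11, Per1 and Lcn2, against 6.48% of all genes tested. Lcn2 also belongs to the acute-phase list. Tsc22d3, a direct target of the glucocorticoid receptor, had 100.1, 87.05 and 147 CPM in the LT livers against 199.5, 125 and 53.6 CPM in Fpn-LKO, so that it was lowest in the library with the most Mt1. Sgk1 was instead highest in LT replicate 3 and Fpn-LKO replicate 3, at 26.6 and 25.7 CPM. The part of this response in the metallothionein levels was not tested. The median log2 fold change of the list was 0.072. Dusp1 and Cdkn1a, 2 of 11, had an unadjusted p-value under 0.05, both higher in Fpn-LKO (2.62% of all genes in that direction), and neither passed adjustment.

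Cell composition was read from marker lists beside these values. The summed level of 8 Kupffer cell and macrophage markers was 287, 386.5 and 296 CPM in the LT livers against 285, 239 and 510 CPM in Fpn-LKO. It was highest in Fpn-LKO replicate 3, the library with the most Mt1, Mt2 and Steap4 and the least Atp7b. Fpn-LKO replicate 2, which came next for Mt1 and Mt2, had the lowest sum. LT replicate 2, with the least Mt1, had the highest sum of the LT livers. Summed hepatocyte markers were 68740 to 84450 CPM in the LT livers against 71970 to 79470 CPM in Fpn-LKO, and summed stellate and endothelial markers 651 to 710 and 638.5 to 676 CPM. Blood markers summed to 352 to 943 and 475.5 to 1244 CPM. Bile duct markers summed to 12.9 to 84.4 and 21.0 to 29.9 CPM. At an unadjusted p-value under 0.05 (4.8% of all genes), Ass1 and Hnf4a of 10 hepatocyte markers were higher in Fpn-LKO. So were Lyve1 of 10 stellate and endothelial markers and Alas2 of 7 blood markers. Cela2a, the only 1 of 9 pancreatic acinar genes tested, was lower, and none of these genes passed adjustment. The part of cell composition in these results was not tested.

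By the Pearson correlation of log2 CPM over the 6 libraries, the genes most like Mt1 among 12576 with a mean of at least 1 CPM were Rai14 (r = 0.9995), Sec22b (0.9922), Clu (0.9896), Evc2 (0.9886) and Zgrf1 (0.9879), and 143 genes exceeded 0.9. The genes most like Slc30a10 were Csf2ra (r = 0.9873), Ly6a (0.9871), Lsm11 (0.9769), Pomt1 (0.9740) and Cd84 (0.9694). For Atp7b they were Tomm6 (r = 0.9963), Xylt2 (0.9918), Kalrn (0.9915), Gm38485 (0.9914) and Nat1 (0.9843). With 6 libraries and this many genes such values are a description of likeness, and no p-value is given for them.

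The other members lie apart from the metallothionein cluster. In RefSeq on GRCm38, Slc30a1 spans 191906697 to 191913248 and Slc30a10 spans 185454848 to 185468762 of chromosome 1, both on the plus strand, with 2 and 4 exons in the longest basic GENCODE transcript. Slc39a4 spans 76612383 to 76618506 of chromosome 15 on the minus strand, with 12 exons. Atp7b spans 21992783 to 22060074 of chromosome 8 on the minus strand, with 21 exons, and Slc31a1 spans 62360583 to 62391769 of chromosome 4 on the plus strand. Slc30a1 overlaps the antisense gene 1700034H15Rik, Slc30a10 overlaps Gm2061 and Slc31a1 overlaps Fkbp15. Mt2 shares 212 bases of its transcript with the antisense transcript Gm45774. Since the sources used here do not state whether counting used the strand, reads of these partners could not be told apart.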

How the data were processed

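Liver RNA of 3 LT and 3 Fpn-LKO mice was sequenced, and groups and replicate numbers were taken from the sample titles. Whether the numbers mark littermates is not stated. The submitters' processing notes list HISAT2 2.1.0, Bowtie2 2.3.4.1 and StringTie 2.1.3b and the build mm10. The authors deposited read counts per gene, which StringTie derives from coverage, without normalization. The deposited FPKM values, a unit per kilobase and per read total, entered no test. The deposited TPM values sum to the same total in every library and served for levels and limma. The methods give a total RNA kit with rRNA removal, whereas the labels give an mRNA kit.

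Counts were tested with edgeR 4.0.16 (R 4.3.3) by the quasi-likelihood test after TMM scaling, and a gene was tested when at most 1 library had 0 reads. Benjamini-Hochberg adjustment covered all 17274 genes, and 0.05 was the threshold. The study's methods name exactTest, which was run as an alternative. Standard errors came from the F statistic, and intervals are 95%. Single values were compared by exact permutation over the 6 libraries. The other settings tried were RLE size factors, DESeq2 1.42.0, exactTest, a block for the replicate number, every gene with a read, filterByExpr and the loss of each mouse in turn. In limma 3.58.1, genes averaging 1 TPM or more were fitted with a pseudocount of 1 or 0.1 on the log2 scale. On counts simulated for this comparison with 17096 genes, the quasi-likelihood test recovered 98 of 100 genes changed by a log2 fold change of 2 and 30 of 100 changed by 1. In the deposited counts, edgeR's coefficient of variation between mice was 0.648 for Mt1 and 0.645 for Mt2, against 0.275 in common for all genes. Recovery of genes as variable as Mt1 and Mt2 was not tested. Copies were searched with BLAST 2.17.0 in GENCODE M21 transcripts, over at least 100 bases. The 6 libraries carry 1 batch label and were taken as single mice, and replicates of a genotype differed beyond sampling noise (chi-square per degree of freedom at least 65.8).

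The members and gene lists were chosen with earlier results of these data known. Gene spans are from RefSeq, and exon numbers from GENCODE. Named genes were the 7 members, Slc40a1, genes of the metal lists with an unadjusted p-value under 0.05 or groups that do not overlap, the most and least abundant of each, and up to 3 such genes of the other lists. Lists of hepatocyte, Kupffer cell, stellate and endothelial, bile duct, pancreas, blood and intestinal markers were used for composition. Genes named for the library order shared with Mt1, and Tsc22d3, Tat and Sgk1, which do not share it, were chosen after their values were seen. No protein sequences were used.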

Additional observations from a re-analysis of the deposited data

How the results depend on the processing

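For the 7 members, none passed the adjusted threshold under any of the 14 alternatives, and the direction stayed the same for Mt1, Mt2, Slc39a4 and Atp7b. Leaving out each mouse in turn, the log2 fold change ranged from 0.69 to 2.78 for Mt1, 1.51 to 3.505 for Mt2, -0.215 to 0.036 for Slc30a1, -0.17 to 0.87 for Slc30a10, 0.026 to 0.59 for Slc39a4, -0.44 to -0.0023 for Atp7b and -0.0049 to 0.13 for Slc31a1. The sign changes were 0.036 for Slc30a1 without LT replicate 2, -0.17 for Slc30a10 without Fpn-LKO replicate 1 and -0.0049 for Slc31a1 without Fpn-LKO replicate 2. The count over all genes, 4, was 72 with DESeq2's Wald test (49 higher, 23 lower), 63 with exactTest (44 higher, 19 lower), 7 with limma on log2(TPM + 0.1) and 0 to 6 when a mouse was left out (0 without LT replicate 2, 1 without LT replicate 1, LT replicate 3 or Fpn-LKO replicate 2, and 6 without Fpn-LKO replicate 3). The causes were not tested.

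With the replicate number as a block, 0 genes passed after adjustment by edgeR's quasi-likelihood test (850 at an unadjusted p-value under 0.05), and Mt1 and Mt2 had log2 fold changes of 1.65 and 2.42 (adjusted p = 0.6855 and 0.244). Same-numbered libraries had correlations of deviations from the group means of 0.23, 0.0048 and 0.11 over 12577 genes, and not every library correlated best with its own number, so the numbers were not taken as pairs. On log2 TPM, a scale added after the data were seen, the correlation of Slc30a1 with Slc39a4 was -0.69 in place of -0.989, and that of Mt1 with Mt2 was 0.966 in place of 0.964. Mt2 had the fewest reads in a library among the members, 66, and Mt1 and Mt2 had within-group SDs of log2 CPM of 1.31 and 1.30.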
